A study of Mus musculus with 15 samples.

Results

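The genes described here encode interleukin-6, interleukin-1 beta and the other acute inflammation products Il1rn, Il1r2, S100a8, S100a9, Saa3, Socs3, Ptx3 and Tnf. They were chosen by name, with the levels of these groups already known, and their probes were found through the transcript accession that each probe carries. This gave 10 of the 18350 genes that had a probe, and 13 of the 41174 non-control probes. Of the 13 probes, 9, from 8 genes, were well above background on at least 3 arrays and were among the 28358 probes tested. The probes of Il1rn and Il1r2 were not among those tested.

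Heart RNA from C57BL/6 mice was hybridized to Agilent single-colour arrays, with an individual mouse on each of 15 arrays. The mice were 8 to 10 weeks old at the start, were injected weekly into the abdomen and were studied at 5 months. The groups were 4 female meth, 3 female PBS, 4 male meth and 4 male PBS hearts. Meth hearts came from mice given methamphetamine hydrochloride, raised over 20 weeks to 40 mg/kg, and PBS hearts from mice given the phosphate-buffered saline vehicle on the same schedule. The labels name no transgene or deletion. The male arrays came from 2 trials with 2 meth and 2 PBS arrays each, and the female arrays from trial 1 by their titles, so sex groups differ by trial and slide as well. Some meth-treated males died before 5 months, so the male meth arrays represent survivors. Whole heart tissue was extracted, so the signal of a gene mixes all cell types of the sample. In such samples fewer cells of a type and less RNA per cell cannot be told apart.

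Interleukin-6 and interleukin-1 beta are secreted cytokines that start the acute phase response. Interleukin-6 acts through its receptor chains Il6ra and Il6st on the kinases of the Jak family and the transcription factor Stat3, which switches on Socs3, an inhibitor that shuts the signal down. Interleukin-1 beta and tumour necrosis factor, the product of Tnf, act through other receptors on NF-kappaB, and together these pathways induce serum amyloid and pentraxin genes. S100a8 and S100a9 encode the partner proteins of calprotectin, which neutrophils hold in large amounts. In the heart, this group of genes is known for its response to infarction, pressure load and infection.

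The promoters below are shown because their 3 genes stand for 3 steps of this pathway, a cytokine, an acute phase target and a feedback inhibitor. The letters are the 250 bases before a transcript start of each gene, read 5′ to 3′ on the gene's strand, from RefSeq on mouse build GRCm38.p6. For Saa3 and Socs3 that start lies inside the annotated extent of the gene. Capitals mark the NF-kappaB letters (GGG, any 2 bases, then TTTCC) and the C/EBP letters TTGCNNAA in Il6, the C/EBP letters in Saa3 and the STAT letters TTCNNNGAA in Socs3, on either strand and with no overlap between them.
Il6, chr5:30012864-30013113, plus strand: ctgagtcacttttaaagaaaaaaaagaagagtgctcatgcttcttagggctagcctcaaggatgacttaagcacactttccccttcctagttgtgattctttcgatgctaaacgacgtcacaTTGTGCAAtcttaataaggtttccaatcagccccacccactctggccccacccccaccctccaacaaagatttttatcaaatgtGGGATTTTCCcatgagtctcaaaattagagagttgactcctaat
Saa3, chr7:46715677-46715926, minus strand: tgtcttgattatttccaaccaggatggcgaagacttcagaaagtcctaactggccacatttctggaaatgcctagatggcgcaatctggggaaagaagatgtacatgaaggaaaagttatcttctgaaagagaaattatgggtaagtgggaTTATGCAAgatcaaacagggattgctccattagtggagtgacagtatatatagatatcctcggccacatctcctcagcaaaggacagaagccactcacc
Socs3, chr11:117969367-117969616, minus strand: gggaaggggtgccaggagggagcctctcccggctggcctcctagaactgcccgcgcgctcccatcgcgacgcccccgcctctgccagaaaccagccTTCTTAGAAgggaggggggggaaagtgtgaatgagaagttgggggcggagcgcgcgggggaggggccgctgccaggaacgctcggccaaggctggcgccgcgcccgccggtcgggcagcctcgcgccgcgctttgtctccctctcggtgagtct

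On that build Il6 spans chr5:30013114-30019975, Saa3 chr7:46711998-46719615, and Socs3 chr11:117966079-117970336. S100a8 and S100a9 are neighbours on chromosome 3, at chr3:90669071-90670034 and chr3:90692630-90695721, and Il1b (chr2:129364569-129371164) and Il1rn (chr2:24336860-24351491) share chromosome 2. All 10 genes had a promoter sequence, with 12 sequences among them, and 7 of the genes held at least 1 of the 3 motifs in this window. The share of all promoters with at least 1 of the 3 motifs was not counted, so nothing is read from the 7. The NF-kappaB letters stood 44 bases before the transcript start of Il6, and the C/EBP letters 128 bases before it. In Saa3 the C/EBP letters lay 99 bases before the start, and in Socs3 the STAT letters lay 154 bases before it. Over all 32851 promoters of the same length, 1.41% held the NF-kappaB letters, 9.56% the C/EBP letters and 7.02% the STAT letters. A match describes these letters and is no measured binding site.

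Levels are given as normalized log2 signal, the log2 of the processed signal minus the 75th percentile of its own array, so a value of 0 lies at that percentile and a difference of 1 is a doubling. Between 61.4% and 71.4% of probes were well above background on each array. Among the 13 probes of the group, 6 to 11 were well above background on an array, with the most on female meth replicate 4 and 10 on female meth replicate 1. Female meth replicates 3 and 4 and female PBS replicate 3 shared slide 4, which had the highest 75th percentiles of signal, from 438 to 589 against 307 to 403 on the other arrays. All 8 cardiomyocyte markers, among them Myh6 and Tnnt2, were well above background in every group, and none passed the threshold for meth against PBS in either sex.

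Il6 was the member whose female arrays separated by treatment. In female meth hearts Il6 stood at -2.04, -3.97, -4.80 and -2.56 in replicates 1 to 4, well above background on 4 of 4 arrays. In female PBS hearts it stood at -5.78, -5.07 and -5.82, well above background on none of the 3 arrays. Every female meth array lay above every PBS array, and replicates 1 and 4 were the highest. Because the PBS level is only a bound, Il6 was at least 3.71-fold higher in female meth hearts on the processed signal shifted by its percentile, from a meth mean of -3.34 (SD 1.27, n = 4) against a PBS bound of -5.23, where the measured PBS mean was -5.56. Among all probes tested, 3.15% had every female meth array above every PBS array, a figure given as background only, since these groups were known when the genes were chosen. No other member probe separated the female groups in that direction, and none had every female meth array below every PBS array, which 5.92% of all probes did.

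In males, Il6 was near background. The meth arrays read -5.16 and -5.38 in trial 1 and -4.34 and -6.37 in trial 2, and 2 of the 4, the first of each trial, were well above background. The male PBS arrays read -5.97, -6.36, -5.33 and -5.30, and none was well above background. The ranges overlapped, and no fold is given, since the male meth mean of -5.31 was not above the bound set by the PBS arrays. The mean was highest in female meth hearts, and the other 3 groups, with most values not well above background, are given no order. On each of slides 1, 2 and 4 the female meth arrays lay above the PBS array of the slide. With normexp background correction the fitted female log2 difference, against PBS values not well above background, was 0.75 in place of 2.21, so the bound above does not carry over to that correction.

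Saa3, an acute phase serum amyloid that is made outside the liver, had the largest fitted difference of the group in females. Female meth hearts stood at 0.34, -2.27, -2.40 and 0.19, and female PBS hearts at -3.73, -2.22 and -4.33. Replicates 1 and 4 were far above all PBS arrays, whereas replicates 2 and 3 lay just below PBS replicate 2. The log2 difference was 2.39 with a standard error of 0.73, a 5.24-fold higher mean, and it was 1.44 with normexp background correction. By slide the difference was 4.07 on slide 1, -0.05 on slide 2 and 3.22 on slide 4. Leaving out single arrays gave values from 1.93 to 2.99.

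Male meth hearts read -2.23 and -2.76 for Saa3 in trial 1 and -3.83 and -3.83 in trial 2. Male PBS hearts read -4.07 and -4.36 in trial 1 and -4.07 and -3.35 in trial 2. The trial 1 meth arrays were above all male PBS arrays, and the trial 2 meth arrays lay among them. The male log2 difference was 0.80 with a standard error of 0.68, made up of 1.72 in trial 1 and -0.12 in trial 2.

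Il1b, the gene of interleukin-1 beta, was well above background on all 15 arrays. Female meth hearts stood at -1.19, -2.97, -3.58 and -1.82, and female PBS hearts at -2.97, -2.58 and -3.14. The meth arrays lay on both sides of the PBS range, replicates 1 and 4 above it and replicate 3 below it, and the mean difference was 0.51 with a standard error of 0.49. Male meth hearts read -2.5 and -2.83 in trial 1 and -3.30 and -3.45 in trial 2, against male PBS values of -2.90, -3.36, -2.09 and -2.75. The male groups overlapped, with a log2 difference of -0.25 and a standard error of 0.46. By slide, the female difference was 1.78, -0.39 and 0.44 on slides 1, 2 and 4, and the male one 0.41, 0.52 and -0.96 on slides 1, 2 and 3. The order of group means was female meth, male PBS, female PBS and male meth, and the 4 ranges overlapped.

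Il1rn encodes the secreted antagonist of the interleukin-1 receptor, and Il1r2 a decoy receptor that binds the cytokine without passing the signal on. Probe A_52_P431159 of Il1rn read -4.44, -6.62, -5.99 and -4.33 in female meth hearts. It was well above background on replicates 1 and 4 and on no other array of the 15, and the second Il1rn probe, A_51_P307166, was well above background on none, so the probes disagree for those arrays. Probe A_51_P470079 of Il1r2 was well above background on female meth replicate 4, at -4.54, and on female PBS replicate 1, at -3.89, and the other Il1r2 probe on no array. No fold is given for either gene, since nearly all values were not well above background. The dim probe A_51_P307166 had every male meth array below every male PBS array, which 5.17% of all probes tested did, and no member probe had every male meth array above, as 4.68% did.

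**Figure D1:**
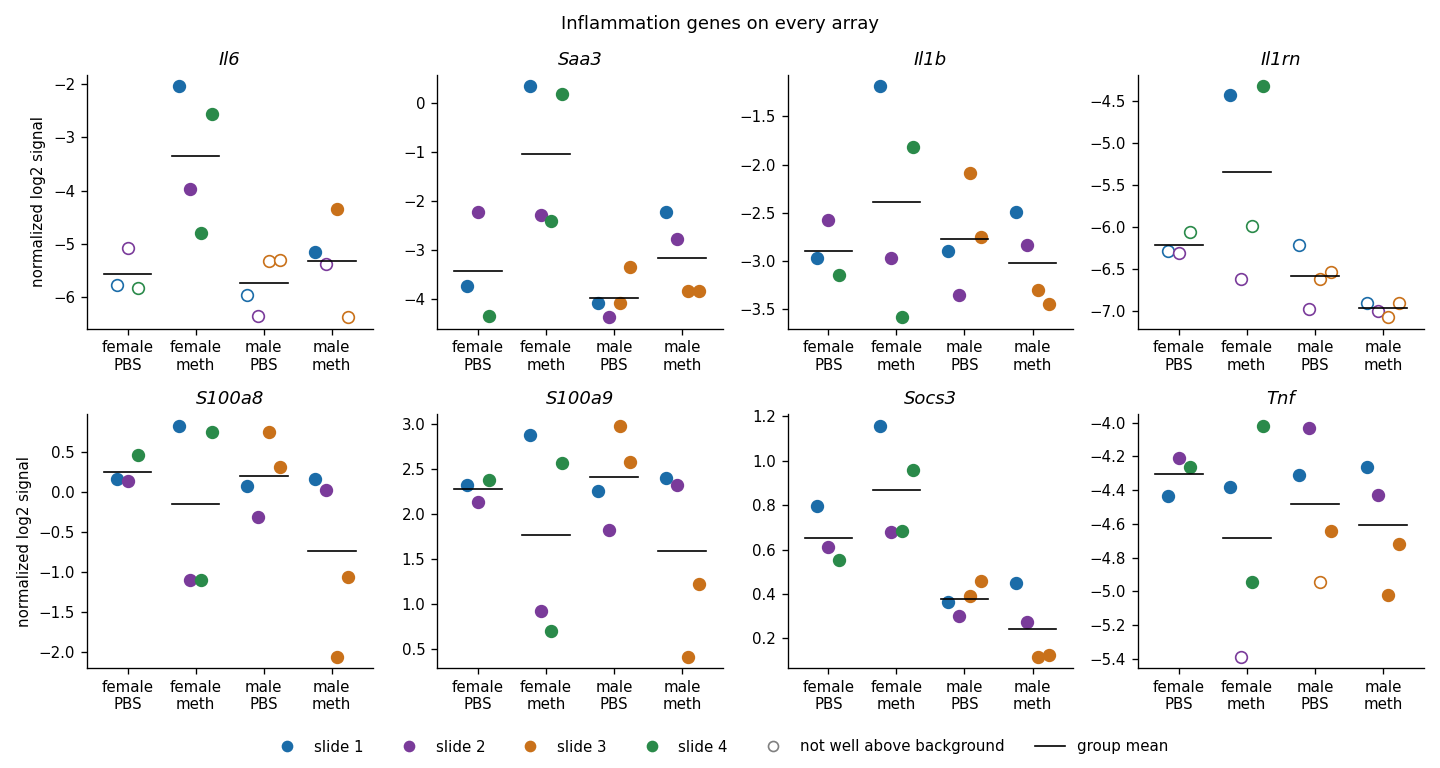
Normalized log2 signal (y axis, own scale per gene) of 8 genes on the 15 arrays by group (x axis). Points are single hearts coloured by slide, open points are not well above background and lines are group means. In Il6, Saa3, Il1b and Il1rn, female meth replicates 1 (slide 1) and 4 (the upper slide 4 point) stand above the other female meth arrays, and in S100a8 and S100a9 the trial 2 male meth arrays (slide 3) are the lowest male arrays.

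Tnf was low in all groups. Its probe read -4.38, -5.39, -4.94 and -4.02 in female meth hearts and -4.43, -4.21 and -4.26 in female PBS hearts, and female meth replicate 2 was not well above background. The meth arrays spread on both sides of the PBS arrays, and the log2 difference was -0.38 with a standard error of 0.25. In males the ranges overlapped, from -5.02 to -4.26 in meth and from -4.94 to -4.03 in PBS hearts, with a difference of -0.12 and a standard error of 0.23.

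Socs3, the feedback inhibitor of interleukin-6 signalling, separated the arrays by sex. Female meth hearts stood at 1.16, 0.68, 0.68 and 0.96, female PBS hearts at 0.80, 0.61 and 0.55. Male meth hearts read 0.45, 0.27, 0.12 and 0.12, and male PBS hearts 0.37, 0.30, 0.39 and 0.46. All 7 female arrays, from 0.55 to 1.16, lay above all 8 male arrays, from 0.12 to 0.46, a separation that 0.959% of all probes tested showed. The order of group means was female meth, female PBS, male PBS and male meth, and the treatment groups overlapped within each sex. The log2 difference of meth against PBS was 0.21 with a standard error of 0.12 in females and -0.14 with a standard error of 0.12 in males.

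Ptx3, a long pentraxin of the acute phase, was near the lower end of detection. Its probe A_51_P374726 ranged from -4.93 to -3.85 in female meth, -4.86 to -4.23 in female PBS, -4.69 to -4.22 in male meth and -5.20 to -4.46 in male PBS hearts. Its other probe, A_52_P26161, ranged from -4.71 to -3.64, -4.95 to -4.16, -5.27 to -4.0 and -5.00 to -4.16 in the same order of groups. All 4 pairs of ranges overlapped, the first probe was well above background on 1 of 4 male PBS arrays, and the differences were 0.18 and 0.48 in females and 0.40 and 0.14 in males.

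S100a8 and S100a9 were well above background on all 15 arrays and moved together. S100a8 stood at 0.83, -1.10, -1.09 and 0.75 in female meth hearts and at 0.16, 0.14 and 0.46 in female PBS hearts. S100a9 stood at 2.89, 0.92, 0.70 and 2.57 in female meth hearts and at 2.32, 2.13 and 2.38 in female PBS hearts. For both genes meth replicates 1 and 4 were above all 3 PBS arrays and replicates 2 and 3 were below all of them. The means differed by -0.40 with a standard error of 0.58 for S100a8 and by -0.51 with a standard error of 0.57 for S100a9. Leaving out single arrays moved these values between -0.73 and -0.09 for S100a8 and between -0.88 and -0.15 for S100a9. With the replicate block, which leaves meth replicate 4 out of the difference for want of a PBS partner, they were -0.71 and -0.77. The 4 meth arrays spanned 1.93 and 2.19 log2 units for the 2 genes, and the 3 PBS arrays 0.32 and 0.24. By slide the female difference in S100a8 was 0.67, -1.24 and -0.63 on slides 1, 2 and 4.

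Male hearts split for the S100 genes by trial. S100a8 read 0.16 and 0.03 in trial 1 meth and -2.05 and -1.06 in trial 2 meth hearts, against 0.08, -0.32, 0.75 and 0.31 in PBS hearts of trial 1 and then trial 2. S100a9 read 2.4 and 2.32 in trial 1 meth and 0.41 and 1.22 in trial 2 meth hearts, against PBS values of 2.26, 1.82, 2.98 and 2.58. Both trial 2 meth arrays were below every other male array for both genes. The share of all probes tested that showed this pattern was not counted. The male log2 differences were -0.94 with a standard error of 0.53 for S100a8 and -0.82 with a standard error of 0.53 for S100a9.

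The female meth arrays disagreed with each other in the same way for every gene of the group. Replicates 1 and 4 were the 2 highest of the 4 arrays for 13 of 13 probes, replicate 1 highest for 7 and replicate 4 for 6. Over all probes tested, replicates 1 and 4 were the 2 highest for 17.5%, and taken singly the 4 replicates were among the 2 highest for 49.7%, 48.1%, 50.8% and 51.5%. The arrays are not independent across probes, and 4 of the 13 probes were mostly at background. Replicate 1 was on slide 1 with trial 1 males, and replicate 4 on slide 4, beside replicate 3, which was low. Among the 4 male meth arrays, the trial 1 pair were among the 2 highest for 11 and 9 of 13 probes, and the trial 2 pair for 3 each, against 51%, 50.7%, 46.5% and 51.9% of all probes tested.

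**Figure D2:**
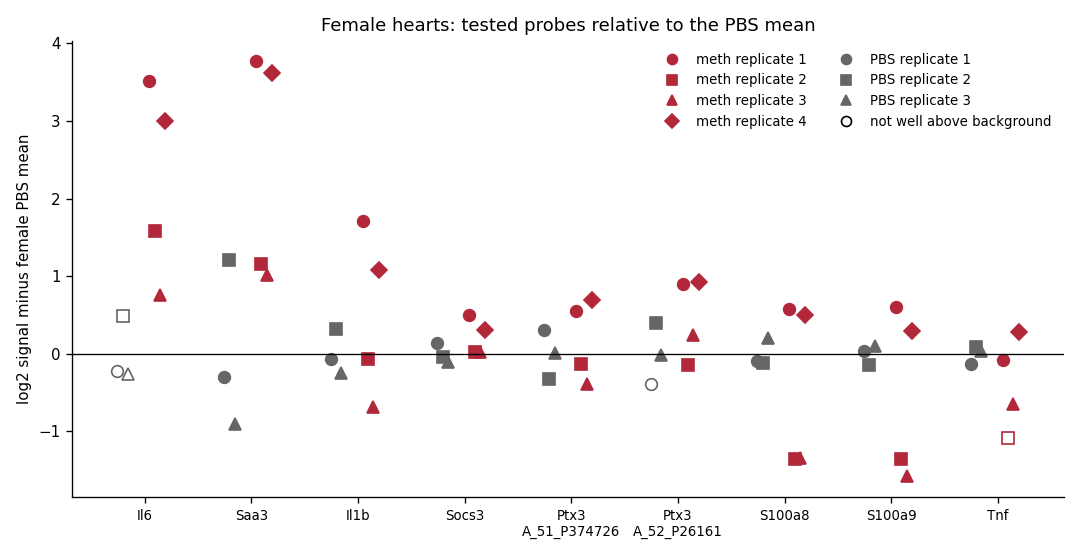
Log2 signal of the 9 tested probes (x axis) on the 7 female arrays, minus the mean of the 3 female PBS arrays for that probe (y axis). Red symbols are meth and grey symbols PBS hearts, symbol shape gives the replicate and open symbols are not well above background. Meth replicates 1 and 4 are the upper red symbols for every probe, and for S100a8 and S100a9 replicates 2 and 3 fall below every PBS heart.

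The fit in limma over all probes called no member in either sex. In females, 0 of 9 member probes had an adjusted p under 0.05, beside 0.758% of all probes called (58 higher and 157 lower). An unadjusted p under 0.05 was seen for 2 of the 9, beside 11% of all probes. In males, 0 of 9 had an adjusted p under 0.05, beside 1.11% called (227 higher and 87 lower), and 0 of 9 an unadjusted p under 0.05, beside 12.8% of all probes. The methods' t-test, paired or not, called 0 of the 9 in either sex after Benjamini-Hochberg adjustment. Over all 28358 probes it called 0 in either sex when paired, and 18 in males and 0 in females when unpaired. Its count for the members therefore adds nothing to that of limma. For the difference between the sexes in response the limma count was 0 of 9, beside 0.138% of all probes, with 0 at an unadjusted p under 0.05, beside 8.67%. These counts describe a list chosen with the group levels known, and nothing is read from them. With the replicate block, which pairs arrays of the same number on a slide, the probes called over the whole array fell from 314 to 157 in males, from 215 to 101 in females and from 39 to 0 for the difference between the sexes, and the members called stayed at 0. Female meth replicate 4 has no PBS array of its number, so with this block all female differences rest on replicates 1 to 3.

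The median log2 difference of the 9 probes was 0.21 in females, beside 0.00065 over all probes, with 6 probes higher and 3 lower. In males it was -0.12, beside -0.03 over all probes, with 4 higher and 5 lower. These medians include Il6, for which the PBS groups give only a bound.

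The wider interleukin-6 family showed no response to meth that passed the threshold. It was represented by 17 tested genes for receptors, sister cytokines, kinases and inhibitors, and 0 passed in either sex, with 3 at an unadjusted p under 0.05 in females and 2 in males, where 11% and 12.8% of all probes had such a p. Those shares are the background for the same counts in the lists that follow. The median log2 difference was 0.06 in females and -0.01 in males. In females the log2 difference was 0.05 for the receptor chain Il6st (standard error 0.08, adjusted p = 0.899) and 0.38 for Il6ra (standard error 0.19, adjusted p = 0.497). Stat3 differed by 0.13 in females (standard error 0.09) and -0.01 in males (standard error 0.08). The largest differences in the list were those of Socs1, a sister inhibitor of Socs3, at -0.56 in females (standard error 0.19, adjusted p = 0.248) and -0.51 in males (standard error 0.18, adjusted p = 0.236), and the next in females was -0.42 for the cytokine Clcf1 (adjusted p = 0.284).

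Among 18 tested genes of the interleukin-1 family, 1 was called in males and 0 in females, with 2 at an unadjusted p under 0.05 in each sex. The called gene was Il33, an alarmin cytokine released by damaged cells. It stood at -0.14, -0.06, 0.36 and 0.10 in male meth hearts and at -0.68, -0.95, -0.78 and -0.87 in male PBS hearts. Every male meth array was above every PBS array, and the difference was 0.88 (standard error 0.15, adjusted p = 0.0163). In females Il33 differed by 0.40 (standard error 0.16, adjusted p = 0.356), and the difference between the sexes did not pass (0.48, adjusted p = 0.579). In males the call was lost without meth trial 1 replicate 2, PBS trial 1 replicate 2, meth trial 2 replicate 1 or either PBS array of trial 2, with adjusted p values from 0.0509 to 0.0653 and log2 differences from 0.80 to 0.90. The receptor of interleukin-1, Il1r1, differed by -0.04 in females (standard error 0.10) and -0.02 in males (standard error 0.10), and the largest female difference was -0.74 for Il18r1, a chain of the interleukin-18 receptor (adjusted p = 0.265).

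Of 24 tested genes of the tumour necrosis factor and NF-kappaB pathway, 1 was called lower in males and 0 in females, with 7 and 4 at an unadjusted p under 0.05. The called gene was Tnfaip2, a transcript induced by tumour necrosis factor. It read 1.92, 1.91, 1.38 and 1.55 in male meth and 2.28, 2.31, 2.35 and 2.35 in male PBS hearts, without overlap. The difference was -0.63 (standard error 0.13, adjusted p = 0.0367), and with the replicate block it missed the threshold (adjusted p = 0.103). The call was also lost without any 1 of the 8 male arrays and without female PBS replicate 1 or 3 (log2 differences from -0.69 to -0.55, adjusted p from 0.0516 to 0.132). The inhibitor Nfkbia, a direct NF-kappaB target, differed by 0.01 in females (standard error 0.08) and 0.30 in males (standard error 0.08, adjusted p = 0.102). Ptgs2, the inducible cyclooxygenase, differed by 0.76 in females (adjusted p = 0.236) and 0.61 in males (adjusted p = 0.281).

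The acute phase list held 17 tested genes, most of them proteins that the liver secretes. None passed as higher in either sex, 1 passed as lower in females, and 7 in females and 6 in males had an unadjusted p under 0.05. The median log2 difference was 0.24 in females, with 12 genes positive, and 0.18 in males, with 11 positive. Of the tested genes, Saa2, Hpx, Fgb and Fgg were well above background on no male array. The male median is the value of Fgb, so the male median and count rest partly on background-level signal. The gene called was Steap4, a metal reductase induced by inflammatory cytokines, at -0.79, -0.81, -0.74 and -0.94 in female meth and -0.43, -0.32 and -0.42 in female PBS hearts. Its difference was -0.43 (standard error 0.08, adjusted p = 0.028), which missed the threshold with the replicate block (-0.39, adjusted p = 0.0942). The call was lost when any single PBS heart of the 3 in females, or any female meth heart but replicate 3, was left out (-0.45 to -0.39, adjusted p from 0.0504 to 0.146). The largest female difference was -1.28 for the fibrinogen gene Fgg (standard error 0.64, adjusted p = 0.506), and Fgb, another fibrinogen chain, differed by -0.85 (adjusted p = 0.529). The largest positive values were 1.22 for the orosomucoid Orm1 (standard error 0.49, adjusted p = 0.353), 1.14 for the haptoglobin gene Hp (standard error 0.39, adjusted p = 0.252) and 1.11 for the hepcidin gene Hamp (adjusted p = 0.354). Serpina3n, a serine protease inhibitor of the acute phase, read -0.28, -1.33, -1.05 and 0.20 in female meth hearts, with replicates 1 and 4 the highest again, and -2.0, -1.31 and -1.59 in PBS hearts (difference 1.02, adjusted p = 0.208). In males the largest values were 1.47 for the orosomucoid Orm2 (adjusted p = 0.185), 1.2 for Orm1 (adjusted p = 0.278) and 0.97 for Cebpb, the transcription factor of the C/EBP letters above (adjusted p = 0.12).

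**Figure D3:**
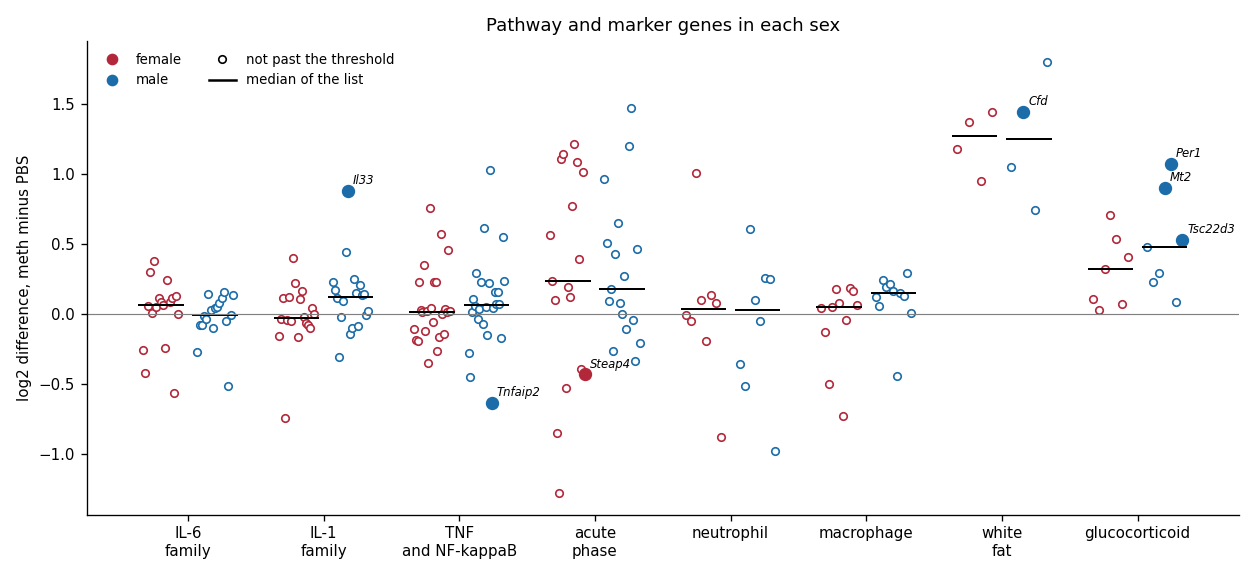
Log2 difference of meth minus PBS (y axis) for every tested gene of 8 pathway and marker lists (x axis), in females (red) and males (blue). Filled points passed the adjusted threshold in limma, open points did not and lines are list medians. The interleukin-6 family holds no filled point in either sex, with medians of 0.06 and -0.01.

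The members' levels in the male trials are given as a description, since the genes were chosen with these arrays known. None of the 9 member probes was called for trial 2 minus trial 1 in limma, beside 4.8% of all probes, and 1 had an unadjusted p under 0.05, beside 21.9% of all probes. The largest difference was that of Tnf, at -0.57 with a standard error of 0.24, and 8 of the 9 differences were negative. Of the 17 interleukin-6 family genes, Ctf1, the cytokine cardiotrophin-1, was called lower in trial 2. It read 1.25 and 1.39 in trial 1 meth and 0.62 and 0.98 in trial 2 meth hearts, and 1.45 and 1.26 in trial 1 PBS against 1.05 and 0.78 in trial 2 PBS hearts. The difference was -0.48 (standard error 0.11, adjusted p = 0.0297), and it missed the threshold without meth trial 1 replicate 2, either PBS array of trial 1, meth trial 2 replicate 1 or PBS trial 2 replicate 2 (-0.53 to -0.39, adjusted p from 0.0519 to 0.124). All trial 2 arrays were on slide 3 and no trial 1 array was, so trial and slide cannot be told apart.

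Among the members, the largest fitted differences in meth response between the male trials were those of the S100 genes. The trial 2 response minus the trial 1 response was -2.30 for S100a8 and -2.28 for S100a9, each with a standard error of 0.88. No probe of the 28358 was called in this contrast by limma, 1294 (4.56%) had an unadjusted p under 0.05, and 2 of the 9 member probes, those of S100a8 and S100a9, were among them. Within trial 2 the meth minus PBS difference was -2.09 for S100a8 and -1.97 for S100a9, and within trial 1 it was 0.22 and 0.32.

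Neutrophil markers outside the group had differences of the same sign across these trials. In trial 2 minus trial 1 response, 8 of 8 tested markers were negative and 5 had an unadjusted p under 0.05, 0 were called, and the median was -1.32 beside -0.01 over all probes. Other markers shared that sign, with 3 of 3 red cell markers negative (median -1.54, 3 at an unadjusted p under 0.05), 6 of 6 mesothelium markers (median -0.67) and 7 of 9 airway markers (median -1.06), whereas 6 of 6 fibroblast markers were positive (median 0.58). None of these was called. Retnlg, a resistin-like gene of neutrophils, read -2.53 and -2.19 in trial 1 meth and -4.78 and -4.02 in trial 2 meth hearts, against -2.43, -2.56, -2.28 and -2.34 in male PBS hearts. Both trial 2 meth arrays were below all other male arrays, and within trial 2 the difference was -2.09 (standard error 0.34, adjusted p = 0.027). Cxcr2, the chemokine receptor that draws neutrophils into tissue, differed within trial 2 by -1.62 (standard error 0.29, adjusted p = 0.0425), although it was well above background on only 1 of 4 male meth and 2 of 4 male PBS arrays. These 2 were the 2 of 8 neutrophil markers called in trial 2, beside 0.356% of all probes. With the replicate block, Retnlg (adjusted p = 0.068) and Cxcr2 (adjusted p = 0.127) missed the threshold. The call of Retnlg was lost without either trial 1 PBS array, meth trial 2 replicate 1 or either trial 2 PBS array (-2.12 to -1.71, adjusted p from 0.054 to 0.209). The call of Cxcr2 was lost with 12 of the 15 single arrays left out, the exceptions being female meth replicate 2, female PBS replicate 3 and male meth trial 2 replicate 2 (-1.77 to -1.35, adjusted p from 0.0524 to 0.293). Across trials the difference in response did not pass for Retnlg (-2.22, adjusted p = 0.68), Cxcr2 (-2.22, adjusted p = 0.505) or Csf3r, the receptor of granulocyte colony-stimulating factor (-2.24, adjusted p = 0.994).

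The summed signal of 15 neutrophil markers, in units of each array's 75th percentile, ranged from 0.66 to 1.04 in male meth, 0.72 to 1.05 in male PBS, 0.71 to 1.11 in female meth and 0.78 to 1.08 in female PBS hearts. Between 4 and 7 of the 15 were well above background on no array of a group, and Elane, Ngp and Camp, granule genes of immature neutrophils, were among them in all 4 groups. The part of neutrophil number, or of the other cell types named, in the S100a8 and S100a9 values was not tested.

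**Figure D4:**
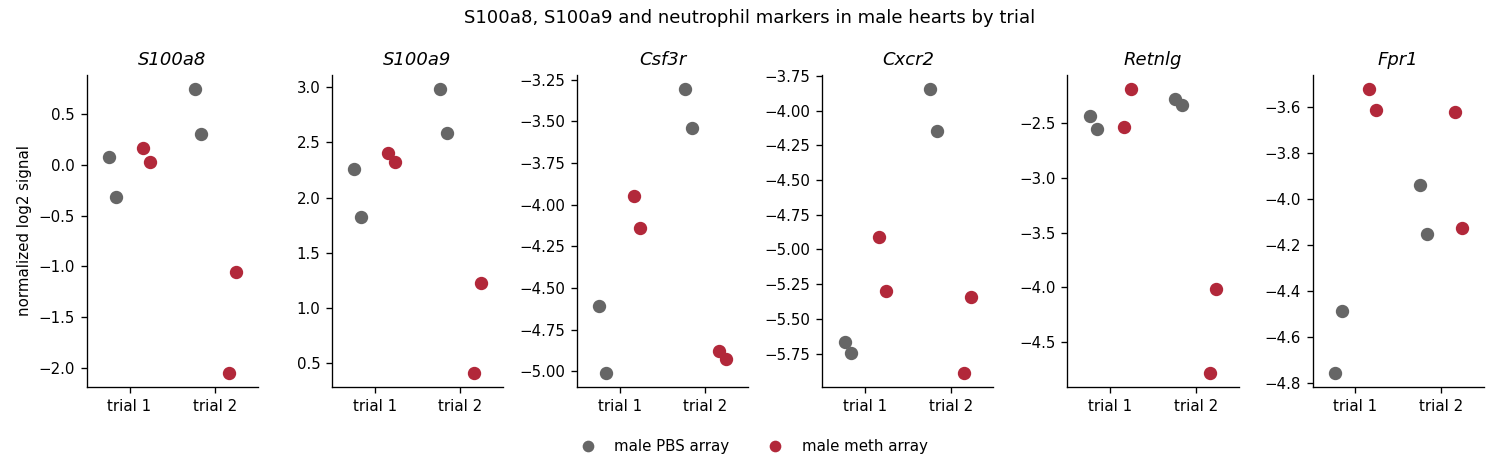
Normalized log2 signal (y axis, own scale per gene) of S100a8, S100a9 and 4 neutrophil markers in the 8 male hearts by trial (x axis). Grey points are PBS and red points meth hearts, and in trial 2 both meth hearts lie below both PBS hearts for every gene except Fpr1, and in trial 1 they lie above for every gene except S100a8 and Retnlg. Csf3r was well above background on 2 of 4 meth and 3 of 4 PBS hearts and Cxcr2 on 1 of 4 and 2 of 4.

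Several cell type lists followed the female meth arrays on which the inflammation genes were high. Replicate 1 was among the 2 highest female meth arrays for 11 of 11 macrophage markers and replicate 4 for 9 of 11, and the summed macrophage signal was 25.8, 17.5, 15.7 and 22.6 in replicates 1 to 4 against values between 18 and 21.6 in PBS hearts. For white fat markers both arrays were the 2 highest for 4 of 4 genes, with sums of 88.3, 58.5, 57.3 and 80.0 against 24.0 to 30.1 in PBS hearts. All 4 female meth sums for white fat were above all PBS sums, and only Lep of that list was below background in PBS hearts. For red cell markers replicates 1 and 4 were the 2 highest for 3 of 3 genes, with sums of 458, 280, 348 and 614 against 240 to 315. Mesothelium markers placed replicate 1 among the 2 highest for 6 of 6 genes and replicate 4 for 5 of 6. The counts were 5 and 4 of 6 for fibroblast and for endothelium markers, 6 and 7 of 9 for airway markers and 6 and 5 of 8 for neutrophil markers. Over all probes tested the shares were 49.7% for replicate 1 and 51.5% for replicate 4, and some of these small counts lie near them. Among the pathway lists, the tumour necrosis factor and NF-kappaB genes gave counts of 17, 7, 9 and 15 of 24 in replicates 1 to 4. The interleukin-1 family gave 10, 3, 8 and 15 of 18, and the acute phase list 9, 4, 9 and 12 of 17. The interleukin-6 family (10, 10, 9 and 5 of 17 genes in replicates 1 to 4), immediate early genes (7, 9, 4 and 2 of 11) and cardiomyocyte markers (4, 7, 4 and 1 of 8) did not have replicates 1 and 4 foremost. Nor did lymphocyte markers (3, 0, 4 and 7 of 7), liver markers (2, 2, 1 and 1 of 3) or glucocorticoid-induced genes (3, 5, 4 and 2 of 7).

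None of 11 macrophage, 8 neutrophil, 7 lymphocyte, 6 fibroblast, 6 endothelium, 6 mesothelium, 3 liver or 3 red cell markers was called for meth against PBS in either sex. Of 4 white fat markers, Cfd was called in males, at 1.44 (standard error 0.30, adjusted p = 0.0444). That call was lost with the replicate block (adjusted p = 0.145) and with 13 of the 15 single arrays left out, the exceptions being male meth trial 1 replicate 1 and male meth trial 2 replicate 2 (1.17 to 1.63, adjusted p from 0.0535 to 0.134). In females 0 of the 4 were called and 4 had an unadjusted p under 0.05, with a median of 1.27. Of 9 airway epithelium markers, 7 were called higher in males, led by Bpifa1 (12.13), Scgb1a1 (9.29), Reg3g (8.82), Scgb3a1 (5.70) and Cyp2f2 (5.02), with a highest adjusted p of 0.000138 among these 5 in limma. Bpifa1, Reg3g and Muc5b were well above background on no male PBS array, so their sizes depend on background-level values. The lowest male difference under an alternative was 7.52 for Bpifa1 and 4.32 for Reg3g. In females Bpifa1 (4.77, adjusted p = 0.0112) and Reg3g (3.46, adjusted p = 0.0413) were called higher and the surfactant gene Sftpc lower (-2.08, adjusted p = 0.0143). Neither Bpifa1 nor Reg3g was well above background on a female PBS array, and their lowest female differences under an alternative were 1.88 and 0.91. The summed signal of 10 airway genes was 53.4, 176, 35.8 and 65 in male meth hearts against 0.56 to 0.66 in male PBS hearts, and 3.9, 1.28, 1.38 and 4.19 in female meth hearts against 1.86 to 3.74 in female PBS hearts. The male array with the most airway signal, meth trial 1 replicate 2, was among the 2 highest male meth arrays for 9 of the 13 member probes and the highest for 2. The airway defence gene Bpifa1 read -0.35, -3.03, -2.71 and -0.16 in female meth hearts, so replicates 1 and 4 were again the highest. With the replicate block the female calls of Bpifa1 (4.31, adjusted p = 0.0732), Reg3g (3.00, adjusted p = 0.128) and Sftpc (-1.98, adjusted p = 0.0666) and the male call of Muc5b (3.30, adjusted p = 0.0519) were lost. Single arrays also ended calls: without female PBS replicate 1 Bpifa1 was not called in females (adjusted p = 0.0569), Reg3g was not called in females when any of 12 arrays was left out (all but female meth replicates 2 and 3 and male meth trial 1 replicate 2, adjusted p up to 0.148), and Muc5b was not called in males without meth trial 1 replicate 2, either trial 1 PBS array, meth trial 2 replicate 2 or PBS trial 2 replicate 2 (adjusted p up to 0.0813).

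Of 7 glucocorticoid-induced genes, which are known to change with stress and handling, Per1 (1.07, adjusted p = 0.0107), Mt2 (0.90, adjusted p = 0.0259) and Tsc22d3 (0.53, adjusted p = 0.0282) were called higher in males and none in females. All 7 differences were positive in each sex, with medians of 0.48 in males and 0.32 in females. In limma, 6 in males and 4 in females had an unadjusted p under 0.05, and none was called for the difference between the sexes. With the replicate block Mt2 (adjusted p = 0.0662) and Tsc22d3 (adjusted p = 0.0831) missed the threshold, and leaving out a single male array lost the call of Mt2 for all but replicate 2 of trial 2 in either group (adjusted p up to 0.101). For Tsc22d3 the call was lost without PBS trial 1 replicate 1 or any trial 2 male array (adjusted p up to 0.109). Of 11 immediate early genes, Ier3 was called higher by 0.71 in males (adjusted p = 0.0223) and by 0.90 in females (adjusted p = 0.0144), and with the replicate block it missed (adjusted p = 0.0864 for males, 0.0749 for females). Leaving out a single male array lost the male call for all but meth trial 1 replicate 1 and PBS trial 1 replicate 2 (adjusted p up to 0.087), and leaving out female PBS replicate 2 lost the female one (adjusted p = 0.0754). The part of these cell types and responses in the values of Il6, Saa3 and the other members was not tested.

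The members also varied together after the means of the sex and treatment groups were removed. Trial and slide were not removed, so differences between the male trials remain in these deviations and in the likeness to other genes. Over the 15 arrays, the deviation of S100a8 from its group mean correlated with that of S100a9 at a Pearson r of 0.991 (Spearman rho 0.989), and that of Il6 with Il1b at 0.822 (rho 0.775) and with Saa3 at 0.73 (rho 0.796). Il6 and Tnf gave 0.247, and Il6 and S100a8 0.467. These values describe 15 arrays that share slides, and without the 2 arrays farthest from the median of Il6 the value for Il1b was 0.64 and for Saa3 0.568. Il1b, S100a8, Saa3 and Socs3 were more alike among themselves, from 0.76 for S100a8 with Saa3 to 0.85 for Il1b with Saa3.

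Among 14199 other genes, those whose deviations were most like those of Il6 were Clec4d (r = 0.906), Cap1 (r = 0.898), Spp1 (r = 0.896), Fzd1 (r = 0.887) and Hdgfl3 (r = 0.886). Clec4d is a C-type lectin receptor of myeloid cells and Spp1 encodes osteopontin. Spp1 read -0.61, -3.00, -3.05 and -0.85 in female meth replicates 1 to 4, with replicates 1 and 4 the highest. Those most like S100a8 were Csta1 (r = 0.967), Sirpb1c (r = 0.938), Lilra6 (r = 0.933), Arhgap28 (r = 0.911) and Clec4e (r = 0.91). Without the 2 farthest arrays the values stayed between 0.798 and 0.863 for the first set and between 0.875 and 0.957 for the second. Likeness was measured over all arrays at once and gives no order of cause or control.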

How the data were processed

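Total heart RNA was labelled with a single dye and hybridized to 15 Agilent whole mouse genome arrays, an individual mouse on each. Per the labels, the authors scanned the arrays and extracted the intensity of each spot with Agilent Feature Extraction 9.1, whereas the deposited scanner files name version 10.5.1.1 in their headers. A value table that the authors deposited beside these files holds log2 values, with array medians from 5.19 to 5.38. They equalled the log2 processed signal plus a constant per array, from -0.81 to 0.13. Their 75th percentile was 8.39 to 8.40 on the arrays. The values thus match the normalization used here up to nearly the same shift, and as an alternative they could differ little from it.

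The processed signals were averaged over the spots of a probe without control and outlier spots, log2 was taken, and the 75th percentile of the array was subtracted. Probes that a minimum of 3 arrays measured well above background were fitted together in limma 3.58.1 (R 4.3.3) with a mean for each sex and treatment and a term for trial. An adjusted p (Benjamini-Hochberg, over all probes) under 0.05 was a call. Differences between trials came from a fit with a mean for each sex, treatment and trial. p-values measure the spread between these mice, and the small number of arrays limits the precision. Because female trial labels disagree between title and source name for 3 arrays, the title was used and the source name tried as an alternative. Trial 1 males and female replicates 1 and 2 lay on slides 1 and 2, trial 2 males on slide 3, and the remaining 3 female arrays (meth replicates 3 and 4, PBS replicate 3) on slide 4, so every slide held both treatments.

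Replicate numbers were checked for pairing over 23808 probes. Same-numbered meth and PBS arrays shared a slide, and their deviations from group means correlated at 0.30, 0.44 and 0.66 in females. In males the values were 0.33 and 0.27 in trial 1 and 0.26 and 0.40 in trial 2. Arrays of different number on a slide were not compared, so the check cannot tell pairing by number from a shared slide or trial. A fit with the replicate block was made as an alternative.

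A bound for a group in which a probe was well above background on no array was taken, per array, as the higher of the probe's own value and the lowest value among probes well above background. Symbols were taken by unversioned accession from RefSeq (GRCm38.p6). A list gene was represented by its probe of highest mean signal. Named were all members, list genes past the threshold (at most 5 of a list per comparison) or, where none passed, up to 3 of the largest differences, and the 5 genes most like Il6 and S100a8. Il6ra, Il6st, Stat3, Il1r1, Nfkbia, Csf3r, Muc5b, Fgg, Fgb, Orm1, Hp, Hamp and Serpina3n were named for their role after their values were seen. The members and lists were chosen with earlier results of these data known. Alternatives were normexp background correction (offset 50, on median signals), quantile and median normalization, the authors' table, other filters and a floor for dim probes, no trial term, slide or replicate block, each sex or male trial alone, the methods' t-test and leaving out each array. Leaving out slide 4 was chosen after seeing the data. The fit was tested on simulated data. Python 3.11.15 and matplotlib 3.10.9 made the tables and plots.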

Additional observations from a re-analysis of the deposited data

Results flagged for a closer look

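Il1b moved in opposite directions in the male trials. Both trial 1 meth arrays lay above both trial 1 PBS arrays and both trial 2 meth arrays below both PBS arrays, and the trial 2 response minus the trial 1 response was -1.42 on the log2 scale. S100a9 was picked out in the same way, with both trial 1 meth arrays above both trial 1 PBS arrays and both trial 2 meth arrays below both trial 2 PBS arrays, and a difference in response of -2.28. The standard errors were 0.85 for Il1b and 0.88 for S100a9, and neither difference was called in limma. The share of all probes tested with such opposite separation was not counted. Nothing more is read from these differences, since the genes were chosen with these arrays known. Probe A_51_P307166 of Il1rn was picked out because female meth replicate 1 stood apart from the other 3 arrays of its group by Dixon's test, with a gap of 0.831 of the group's range. That probe was well above background on no array, and of the 39 groups of 4 arrays examined chance alone would pick out about 1 in 20.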

How the results depend on the processing

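No member probe was called under any alternative, in any comparison. Over all probes, the 314 calls in males became 53 with normexp background correction, 177 with no filter on dim probes, 525 with slide as a block, 157 with the replicate block, 0 and 4 with trial 1 or trial 2 arrays alone, 167 with male arrays alone, and 0 (paired) and 18 (unpaired) with the methods' t-test, which without adjustment passed 4313 and 3769. The 215 calls in females became 27 with normexp, 132 (49 higher, 83 lower) with quantile normalization, 124 (73 higher, 51 lower) with a shift by the median, 91 with no filter, 61 (31 higher, 30 lower) with no trial term, 411 with slide as a block, 101 with the replicate block, 21 with female arrays alone, 0 and 0 with the t-test (2817 and 2350 without adjustment) and 49 without slide 4, against 58 higher and 157 lower in the fit reported. The 39 calls for the difference between the sexes became 14 with normexp, 12 with probes well above background on all 15 arrays, 0 with the replicate block and 2 without slide 4. The 1362 calls between male trials became 33 with normexp, 498 with no filter, 4750 with trial as the source names give it and 3981 without slide 4, and the level between trials could not be fitted with a slide or replicate block. The source names leave the trial of every male array unchanged, and in this fit they only add a term for the female arrays on slide 4. The 0 calls for the difference in response between trials became 1 with probes above background on all arrays, 5 with the source-name trial, 4 with slide as a block and 1 without slide 4. Leaving out single arrays gave 119 to 309 calls in males, 38 to 205 in females, 28 to 49 for the sexes, 221 to 1436 between trials and 0 to 60 for the response between trials. Among the list genes named with a call, the replicate block ended no call other than those given beside the results. Without slide 4, Ier3 (adjusted p = 0.126) and Steap4 (adjusted p = 0.122) were not called in females. The causes of these shifts were not tested. Of the members' female differences, those of Il6 and Tnf moved by more than the spread between replicates under 1 alternative each, and Tnf changed sign, to 0.13. In males the differences of Il1b, S100a8, S100a9 and Socs3 moved so with trial 1 or trial 2 arrays alone, which have opposite signs, and the Il6 difference in response between trials (-0.93) moved under 4 alternatives, from -1.95 to 0.51, and changed sign under 3. Dim probes (Il6 outside female meth hearts, Il1rn, Il1r2, Ptx3 and Tnf) are limited by signal over background.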
